A study of Sus scrofa domesticus with 4 samples.

Results

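CDK1, CCNB1 and TOP2A, genes transcribed mainly in dividing cells, were measured in anterior pituitaries from 8 mature gilts, which are young female pigs. Of these, 4 were in early pregnancy and 4 in the estrous cycle, all on days 12 to 13, and all were a Large White x Polish Landrace cross of about 110 kg. Pregnant gilts had been bred naturally and carried conceptuses, and cyclic gilts were staged by their ovaries. No hormone, drug or genetic change was applied to either group. The gland was taken whole, so a level is an average over all its cells, and fewer dividing cells cannot be told apart from less RNA per dividing cell. RNA was hybridised to 4 two-colour oligonucleotide arrays, each holding 1 pregnant and 1 cyclic gilt. By the sample labels Cy3 marked the pregnant gilt on arrays 1 and 3, while on arrays 2 and 4 Cy5 did. The members were all probes whose RefSeq accession belongs to 1 of the 3 genes. The 3 genes, of 2459 with a named probe, had 4 such probes among 43603, 2 for CDK1, 1 for CCNB1 and 1 for TOP2A, and all 4 passed the filters and were tested among 21624 probes.

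The 3 genes act towards the end of the cell cycle. CDK1 is the kinase that drives cells into mitosis, and it is inactive until it binds a cyclin. CCNB1 encodes cyclin B1, the partner that accumulates before division and is destroyed at anaphase. TOP2A encodes topoisomerase II alpha, which untangles replicated DNA so that chromosomes can condense and separate. In the adult anterior pituitary few cells divide at a time, and new hormone cells can arise from division of existing cells or from a small pool of stem cells.

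The spots were dim. Across the 32 spot readings of the 4 probes (each in 8 gilts), the median signal was 1.44 to 21.9 times its local background. Of these, 13 lay below 3 times background. The scan software still called all 32 well above background and flagged none as an outlier. The 4 brightest of the 32 belonged to the cyclic gilt of array 3, since the other 28 readings reached at most 6.68 times background. With 4 arrays, precision was limited by their number.

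CDK1, accession NM_001159304, was read by probes A_72_P293014 and A_72_P440916. Levels below are log2 normalised intensities, which compare gilts for 1 probe and not one probe with another. The probe A_72_P293014 stood at 7.30, 7.26, 7.22 and 7.76 in the pregnant gilts of arrays 1 to 4. It stood at 7.44, 8.11, 9.17 and 7.89 in the cyclic gilts of the same arrays. The groups overlapped, because the cyclic gilt of array 1 lay below the pregnant gilt of array 4. The cyclic gilt of array 3 was the highest, 1.07 log2 units or 2.10-fold above the next gilt. The probe A_72_P440916 gave 7.28, 6.90, 7.07 and 7.85 in pregnant and 7.27, 7.84, 8.65 and 8.17 in cyclic gilts. Here the same gilt was highest, but only by 0.48 above the cyclic gilt of array 4. Over the 8 gilts the 2 CDK1 probes had a Pearson r of 0.92 (exact permutation p = 0.00124, two-sided, n = 8) and a Spearman rho of 0.88 (exact permutation p = 0.00724). Without the 2 gilts farthest from the median, r was 0.97 over the remaining 6.

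CCNB1, accession NM_001170768, was read by probe A_72_P260897. Its level was 7.12, 6.73, 6.86 and 7.12 in the pregnant gilts of arrays 1 to 4. In the cyclic gilts it was 7.35, 7.65, 8.63 and 7.09. The lowest cyclic gilt, that of array 4, fell just under the highest pregnant one, and its spot was the dimmest of all, at 1.44 times background.

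TOP2A, accession NM_213884, was read by probe A_72_P440301. Its level was 7.07, 6.55, 6.53 and 7.14 in pregnant gilts and 6.998, 7.45, 8.70 and 7.21 in cyclic gilts. The groups overlapped again, and the cyclic gilt of array 3 exceeded the next gilt by 1.25 log2 units, or 2.37-fold. The group means were 6.82 ± 0.33 (SD, n = 4) for pregnant and 7.59 ± 0.76 (SD, n = 4) for cyclic gilts. Leaving out the cyclic gilt of array 3, the cyclic mean was 7.22 ± 0.23 over the other 3.

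**Figure D1:**
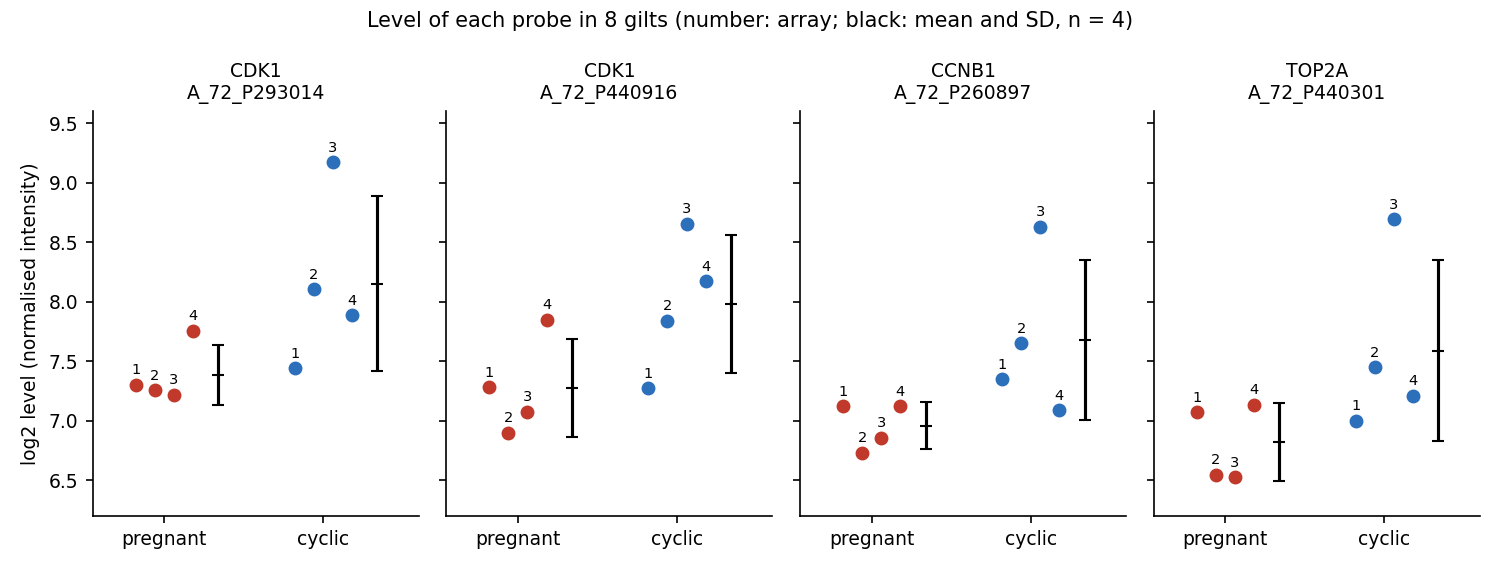
Log2 level (normalised intensity, vertical axis) of each of the 4 probes in the 8 gilts, pregnant in red and cyclic in blue, numbered by array, with the mean and SD of each group (n = 4) in black. In every panel the cyclic gilt of array 3 is highest, at 9.17 and 8.65 for CDK1, 8.63 for CCNB1 and 8.70 for TOP2A, and the groups overlap.

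A lead of this size was rare among the arrays' probes. Of 19877 tested probes measured in all 8 gilts, 20 (0.101%) were highest in the cyclic gilt of array 3 with a gap of at least 1 log2 unit to the next. They included TOP2A and the first CDK1 probe, and CCNB1 missed with a gap of 0.98. In the pregnant gilt of array 3 the same count was 20, and in the cyclic gilt of array 4 it was 23. The gap was chosen after the values were seen, so these counts are a description.

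Within each array the pregnant gilt can be set directly against its cyclic partner. On array 3 the log2 ratio of pregnant over cyclic was -1.96 for CDK1 (A_72_P293014), -1.58 for its second probe, -1.77 for CCNB1 and -2.17 for TOP2A. On array 2 the 4 probes lay close together, between -0.94 and -0.85. On array 1 they lay between -0.22 and 0.07, and on array 4 between -0.32 and 0.03. The pregnant gilt was thus lower on arrays 2 and 3, and nearly level with its partner on arrays 1 and 4. How near to 0 depended on the processing. With the scanner's own processed signals the 4 probes lay between -0.45 and 0.18 on array 1, and between -0.52 and -0.05 on array 4. They lay between -2.04 and -1.47 on array 2 and between -3.56 and -2.49 on array 3 there. The division between arrays 2 and 3 and arrays 1 and 4 does not follow the dyes, since each dye orientation holds 1 array of either kind. The fitted dye effects were 0.28 for CDK1, CCNB1 and TOP2A, and 0.08 for the second CDK1 probe.

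**Figure D2:**
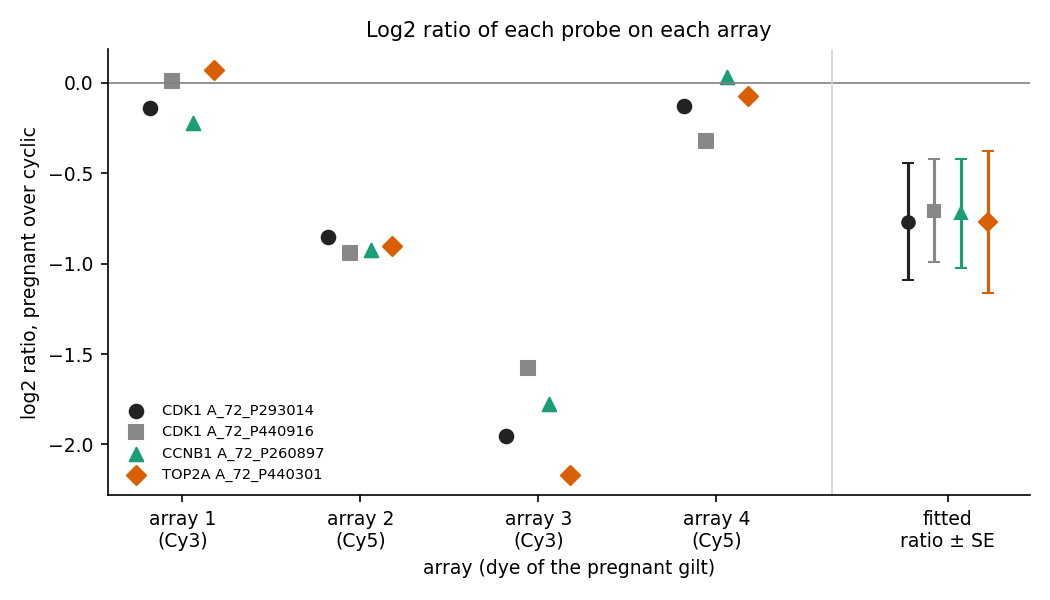
Log2 ratio of pregnant over cyclic (vertical axis) for the 4 probes on each array, with the dye of the pregnant gilt in brackets, and at the right the fitted ratio with its SE. The 4 probes move together on each array, from -2.17 to -1.58 on array 3 and from -0.94 to -0.85 on array 2, and sit near 0 on arrays 1 and 4.

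The comparison of early pregnancy with the cycle gave negative ratios that did not pass the test. CDK1 had a fitted log2 ratio of -0.77 ± 0.86 (SD, n = 4) and an SE of 0.32, which is 1.70-fold lower in pregnant gilts. Its 95% interval ran from -1.61 to 0.07, and the limma adjusted p was 0.298. CCNB1 had -0.72 ± 0.81 (SD, n = 4), 1.65-fold lower, with an interval from -1.51 to 0.06 and a limma adjusted p of 0.297. TOP2A had -0.77 ± 1.03 (SD, n = 4), 1.70-fold lower, with an interval from -1.79 to 0.25 and a limma adjusted p of 0.358. The second CDK1 probe had -0.71 ± 0.70 (SD, n = 4) with a limma adjusted p of 0.288. The SD over arrays was about as large as the ratio itself for each probe. An exact two-sided sign-flip test over the 4 arrays cannot go below p = 0.125. It gave 0.125 for CDK1, 0.25 for its second probe and for CCNB1, and 0.375 for TOP2A.

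None of the 4 probes was called at an adjusted p under 0.05 by limma, where the share called over all tested probes was 0%. At an unadjusted p under 0.05 and lower in pregnancy, limma listed 0 of the 4 beside 7.62% of all probes (1647), and 3903 probes in either direction. A negative ratio on all 4 arrays was found for 1 of the 4, the first CDK1 probe, beside 10.4% of all probes. In size the ratios stood at the edge of the distribution, for only 109 tested probes (0.504%) had a ratio at or below that of CCNB1. For the second CDK1 probe this share was 0.527%. By limma p the 4 probes did not stand at the edge, with ranks from 4294 to 6635 among 21624. A log2 ratio below -0.8 on both arrays 2 and 3 was found for all 4 probes and for 0.296% of tested probes (64), a limit chosen after the values were seen.

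The result rests on single arrays. Without array 3 the ratios were -0.31 for CDK1, -0.33 for CCNB1 and -0.21 for TOP2A, with limma adjusted p of 0.369, 0.435 and 0.598. Without array 2 they were -0.59, -0.48 and -0.56, and without array 4 -0.95, -0.96 and -0.98. Without array 1 they were -1.22, -1.11 and -1.33 and all passed, with limma adjusted p of 0.0157, 0.0277 and 0.016. In that fit array 3 is alone in its dye orientation, so its ratio weighs as much as the other 2 together and adds nothing to the residual spread. The same fit called 3391 of 21837 probes, 4.58% of the tested probes being called lower in pregnancy. By its construction an offset of 50 added to both channels draws the ratio of a dim spot towards 0, and with an offset of 0 the ratios were -0.99, -1.02 and -1.16. With the scanner's own processed signals the ratios were -1.20 for CDK1, -1.35 for CCNB1 and -1.53 for TOP2A, still short of the threshold with limma adjusted p of 0.231, 0.255 and 0.267. The labelling protocol can be read as placing pregnant RNA in Cy3 throughout, and under that reading the ratio was -0.28 for each of the 3 genes and -0.08 for the second CDK1 probe. The deposited value table is turned by the alternating sample labels and not by that reading.

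Levels of the 3 genes varied together from gilt to gilt. CDK1 and TOP2A had a Pearson r of 0.97 over the 8 gilts (exact permutation p = 0.000124, adjusted over 3 pairs 0.000372) and a Spearman rho of 0.98 (exact permutation p = 0.000397, adjusted 0.00119). CCNB1 and TOP2A had an r of 0.97 (exact permutation p = 0.00119, adjusted 0.00179) and a rho of 0.74 (exact permutation p = 0.0458, adjusted 0.0458). CDK1 and CCNB1 had an r of 0.93 (exact permutation p = 0.00471, adjusted 0.00471) and a rho of 0.76 (exact permutation p = 0.0368, adjusted 0.0458). All tests were two-sided, and the 2 gilts of an array share its intensity scale. After each array's mean was taken out, r was 0.99 for each of the 3 pairs. The 2 gilts of an array then have equal and opposite values, so this r restates the 4 array ratios. It does not rest on 8 separate gilts. After a dye effect was taken out r was 0.93 to 0.97, and after the group means 0.89 to 0.95.

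The correlations were lower without 1 animal. Without the cyclic gilt of array 3 r was 0.72 for CDK1 with CCNB1 (exact permutation p = 0.0669, n = 7). It was 0.87 for CDK1 with TOP2A (exact permutation p = 0.00893) and 0.86 for CCNB1 with TOP2A (exact permutation p = 0.0194). Without the 2 gilts farthest from the median of the first gene of the pair, r was 0.43, 0.79 and 0.78 over 6 gilts, with exact permutation p of 0.386, 0.0736 and 0.0806. None of the 3 Pearson correlations passed there, and each r was lower than over all gilts. With only 6 gilts and a narrower range, failing to pass does not show that the relations rest on the gilts left out. By rank CDK1 with TOP2A held better, with a rho of 0.96 over 7 gilts (exact permutation p = 0.00278, adjusted 0.00833) and 0.94 over 6 (exact permutation p = 0.0167, adjusted 0.05). The rho of the pairs with CCNB1 was 0.64 and 0.61 over 7 gilts, with exact permutation p of 0.139 and 0.167. As a background, 0.126% of 19876 other tested probes had an r with CDK1 as high as its lower value among the members, 0.0906% with CCNB1 and 0.0402% with TOP2A. Over 7 gilts these shares were 5.48%, 0.825% and 0.317%.

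**Figure D3:**
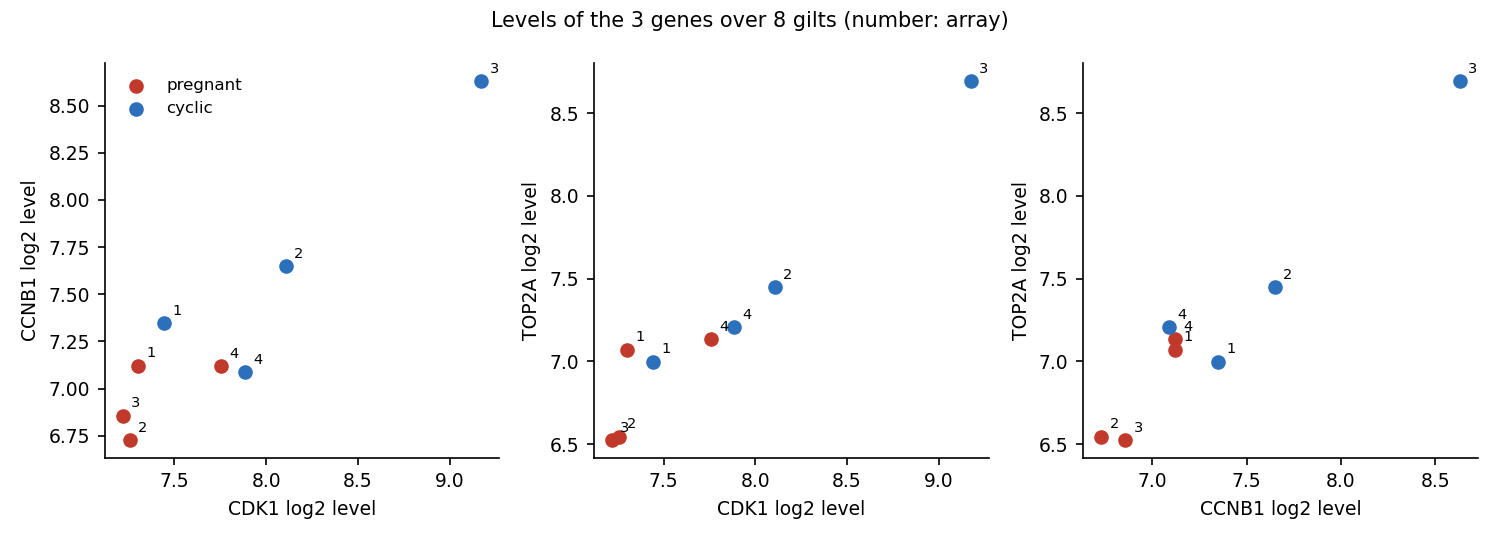
Log2 levels of the 3 genes plotted against each other in 8 gilts, pregnant in red and cyclic in blue, numbered by array. The cyclic gilt of array 3 lies far out at the upper right of each panel, and r falls from 0.93, 0.97 and 0.97 with it to 0.72, 0.87 and 0.86 without it.

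Other genes of the cell cycle were described from a list of 165, of which 25 had a named probe and 22 a tested one. Of the 22, 16 had a negative and 6 a positive ratio, 0 passed at an adjusted p under 0.05 by limma, and 5 were lower and 0 higher at an unadjusted p under 0.05. Over all tested probes 0% passed the adjusted threshold, and 7.62% were lower and 10.4% higher at the unadjusted one. The median ratio of the list was -0.18, beside 0.01 for all tested probes, of which 46.9% were negative. By array the list medians were -0.02, -0.05, -0.44 and 0.05, so array 3 lay farthest from 0. With median centring in place of loess, 11 of the 22 were negative and the list median was -0.01, beside 0.08 and 33.3% negative for all tested probes. CDK1, CCNB1 and TOP2A stayed negative there, at -0.69, -0.70 and -0.74.

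Kinases, spindle genes and activators of anaphase come next. PBK, a kinase active in dividing cells, had ratios of 0.00, -1.10, -1.41 and -0.15 on arrays 1 to 4, fitted at -0.66 (limma adjusted p = 0.302). These are values of its brightest probe, and the fitted ratios of its 3 tested probes ran from -0.66 to -0.21. CDC20, which activates the anaphase-promoting complex that destroys cyclin B1, had -0.03, -0.32, -1.28 and 0.21, fitted at -0.36. BIRC5, or survivin, a part of the complex that corrects chromosome attachment, had -0.02, -0.54, -0.78 and 0.05, fitted at -0.32. PBK, CDC20 and BIRC5 were all lowest on array 3 and next lowest on array 2. AURKA, a kinase of the spindle poles, did the same at a smaller size, with 0.04, -0.18, -0.44 and -0.11, fitted at -0.17. AURKB, the kinase partner of survivin, did not, with -0.19, -0.23, -0.19 and 0.18, fitted at -0.11. STMN1, which destabilises microtubules, was fitted at -0.19, the checkpoint kinase CHEK2 at 0.04 and FZR1, the other activator of the anaphase-promoting complex, at 0.02.

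Regulators of the CDK1 switch were measured by 4 genes. ARPP19, which as a phosphoprotein restrains the phosphatase that opposes CDK1, had -0.21, -0.40, -0.58 and -0.23, fitted at -0.36 (limma unadjusted p = 0.0166, adjusted p = 0.237). PPP2R1A, the scaffold of that phosphatase, was fitted at -0.26 and its catalytic subunit PPP2CA at -0.11. The PPP2CA value came from 3 arrays, without array 2. CDC25C, the phosphatase that activates CDK1, went the other way with 0.53, 0.07, 0.01 and 0.16 on arrays 1 to 4, fitted at 0.19. The CDK inhibitor CDKN1B was fitted at -0.18 and CDKN3, a phosphatase that acts on CDKs, at -0.11, each from 3 arrays.

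The remaining tested genes of the list act in G1, replication, chromosome structure or transcription. CDK4, the G1 kinase, had -0.41, -0.27, -0.98 and 0.04, while its partners went apart, CCND3 at -0.26 and CCND2 at 0.24. MCM3, a subunit of the replication helicase, had 0.35, 0.08, -0.13 and -0.05. HMGB2, a chromatin protein, had -0.43, 0.52, -1.23 and 0.28 by its brightest probe. By that probe it was higher in the pregnant gilt on array 2, where the 3 mitotic genes were lower. That probe was fitted at -0.21, the weakest of its 3 tested probes, which were all negative and reached -0.69. The histone variant gene H2AFZ was fitted at -0.05 from 3 arrays, without array 2. NFYB, a subunit of the factor that binds CCAAT boxes, was fitted at -0.27 and MYC at 0.11, with MYC at 0.86 on array 3 and -0.89 on array 4.

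**Figure D4:**
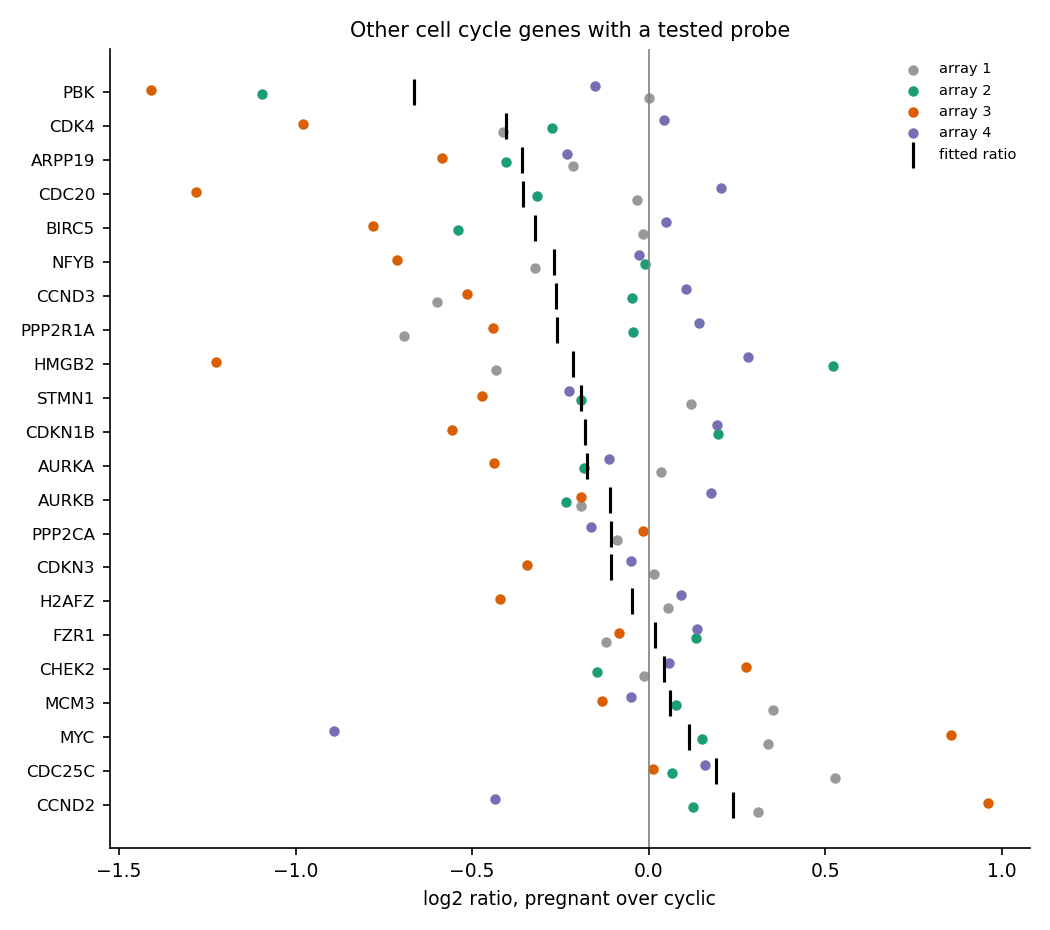
Log2 ratio of pregnant over cyclic (horizontal axis) on each array for the 22 other cell cycle genes with a tested probe, in order of the fitted ratio (black bar). Each gene is shown by its brightest tested probe. PBK is lowest at -0.66, and for PBK, CDC20 and BIRC5 arrays 3 and 2 lie to the left of arrays 1 and 4.

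Likeness was also measured over gilts, as Pearson r with the mean of the 3 genes after each was scaled. Each other gene stood by its brightest tested probe alone. Of 1487 other named genes measured in all 8 gilts, the 10 highest were IL6, PBK, CDC20, LOC574051, BIRC5, ANGPTL4, CLDN11, FUT1, ENPEP and SGCD. Of these, 3 were in the cell cycle list. IL6, a cytokine, had an r of 0.96, PBK 0.96, CDC20 0.95, LOC574051 0.94 and BIRC5 and ANGPTL4, a regulator of lipoprotein lipase, 0.90 each. IL6 had log2 ratios of 0.17, -0.39, -0.98 and 0.12 on arrays 1 to 4. Over all 1487 genes 6 had an r above 0.9 and the median was 0.03, while over the 18 cell cycle genes among them the median was 0.30 and 4 were negative. Without the cyclic gilt of array 3 PBK kept an r of 0.95 and ranked first, while CDC20 had 0.78, BIRC5 0.70 and IL6 0.87.

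**Figure D5:**
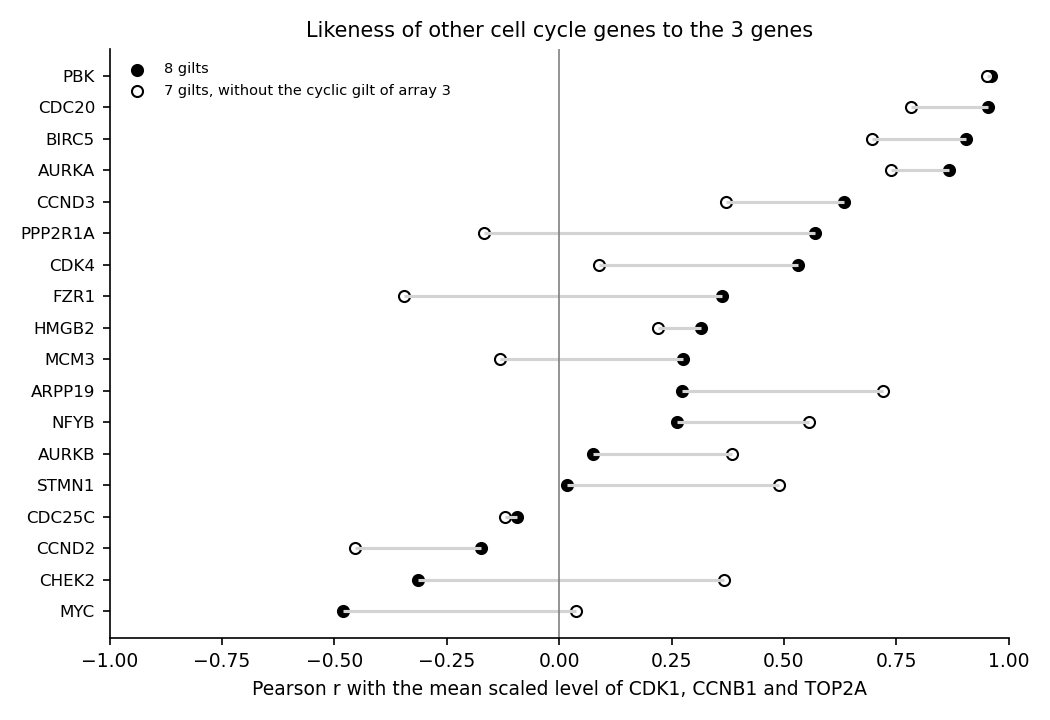
Pearson r (horizontal axis) of 18 other cell cycle genes with the mean scaled level of CDK1, CCNB1 and TOP2A, over 8 gilts (filled) and over 7 without the cyclic gilt of array 3 (open). PBK stays at 0.95 without that gilt, CDC20 falls from 0.95 to 0.78, and MYC is lowest at -0.48.

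Markers of the cells a pituitary sample can hold were set beside these values. The tissue label was checked first, and 10 of 11 hormone cell markers had probes and all 10 were well above background on every array. Summed normalised intensities are given for genes measured in all 8 gilts. The stromal and pericyte markers (4 of 11 summed) ran from 4541 to 7663 in pregnant and from 5357 to 6329 in cyclic gilts. By sum the pregnant gilt of array 4 was the highest of the 8, with 7663, and the cyclic gilt of array 3 had 6329. By mean log2 level the cyclic gilt of array 3 was the highest, at 9.79, against 9.54 in the pregnant gilt of array 4. ACTA2, a gene of this sum, lies in a dim area of the slide on array 4, at 9.71 in the pregnant and 9.95 in the cyclic gilt. The low end of 5357 also came from array 4, so these rankings depend on the measure and on that area. The median ratios by array were -0.44, -0.39, -0.61 and -0.19. Of its 5 tested genes 4 had a negative fitted ratio, and DCN, which encodes decorin, was at 0.22. The endothelial markers (4 of 10) ran from 1906 to 2410 in pregnant and from 2058 to 2575 in cyclic gilts. The highest was the cyclic gilt of array 3, with 2575, just above the cyclic gilt of array 4 with 2527. Only 1 of these 4 genes, ENG at 9.97, was highest in the cyclic gilt of array 3. PECAM1, at 9.96, was lower in that gilt than in any other.

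The remaining lists were not highest in that gilt by sum or by mean log2 level. Lymphocyte markers (5 of 16) ran from 2834 to 4325 in pregnant and from 2758 to 3843 in cyclic gilts, the cyclic gilt of array 3 being lowest with 2758. Among T cell markers CD8A was well above background in all 8 gilts, CD3E and CD3G in 3 of each group, and CD3D and CD4 in 0. Myeloid markers (5 of 10) ran from 941 to 3077 and from 901 to 2168, with 2125 in that gilt. Both low ends came from array 4, where AIF1 and TYROBP lie in a dim area of the slide, and on the other 3 arrays the ranges were 1657 to 3077 and 1869 to 2168. SPI1 was not well above background in any gilt. Folliculostellate and stem cell markers (3 of 12) ran from 2138 to 3746 and from 2348 to 4649, with 2348 in that gilt, and hormone cell genes (9 of 11) from 534666 to 945151 and from 613256 to 1135074, with 1127228 in that gilt. Of 9 erythroid markers 2 had a named probe and 0 were tested. The part of other cell types in the levels of CDK1, CCNB1 and TOP2A was not tested.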

How the data were processed

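Anterior pituitary RNA of 4 pregnant and 4 cyclic gilts was measured on 4 two-colour Agilent arrays of design 026440 on 1 slide, 825 ng of cRNA per dye per the labels' protocols. The deposited scanner files give spot intensity and background intensity, read by Agilent Feature Extraction 10.7.3.1 per the file headers, with processed signals and their log10 ratio. The deposited value table holds log2 ratios, which matched those of the processed signals turned by the labelled dyes (slopes of -1 and 1). The medians of its columns lie at 0.07, -0.08, -0.18 and -0.17, without centring.

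Median signals were corrected by normexp (offset 50) and normalised by loess within arrays. Control spots had weight 0, outlier spots were dropped and replicate spots averaged. Testing required a probe to be well above background in every gilt of at least 1 group, with unflagged spots on 3 or more arrays. Models were fitted with limma 3.58.1 in R 4.3.3 with a dye effect and Benjamini-Hochberg adjustment over 21624 probes. A gene stands by its brightest tested probe. Levels per gilt were obtained after quantile normalisation of average intensities. Names came from RefSeq accessions (Sscrofa11.1 table), found for 5578 of 43603 probes and 2459 genes. From 47.5% to 71.8% of spots were well above background and 0 were saturated. Levels were highest on array 4 for 61.1% of probes, and its dim area holds no spot of the 4 probes.

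The genes and lists were chosen with earlier results of these data known. The text names the 3 genes, up to 5 genes of each role by smallest p, and the 10 genes most like them. The fit was tested on simulated data for the comparison of pregnant over cyclic. The labels say 8 individuals were used, so each array is a separate pair. The alternatives changed the background correction, normalisation, dye term, filters, dyes, model, arrays and probe of a gene.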

Additional observations from a re-analysis of the deposited data

Results flagged for a closer look

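The level of CDK1 (A_72_P293014) in the pregnant gilt of array 4 was 7.76, against 7.22 to 7.30 in the other pregnant gilts, a gap of 0.843 of the group's range, which is beyond Dixon's 95% limit for 4 samples. Chance puts about 1 in 20 sets beyond that limit, and 12 sets were examined. The median level over all probes was also highest in that gilt, at 7.86, against 7.54 to 7.84 in the other 7 gilts, and its part in the CDK1 value was not tested.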

How the results depend on the processing

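The ratios of CDK1, CCNB1 and TOP2A were negative under all 15 alternatives run for each, from -1.22 to -0.28 for CDK1, -1.35 to -0.28 for CCNB1 and -1.53 to -0.21 for TOP2A. Leaving out 1 array gave -1.22 to -0.31, -1.11 to -0.33 and -1.33 to -0.21, and only without array 1 did they pass the limma threshold. Over all the alternatives limma adjusted p ran from 0.0157 to 0.89, 0.0277 to 0.886 and 0.016 to 0.895. Without a dye effect, with other background filters, with flagged spots kept and in the separate-channel fit, the ratios repeated the main setting. Averaging a gene's probes could change only CDK1, and the deposited value table repeated the processed signals. Agreement in sign there adds no separate evidence. The ends at -0.28 and the highest adjusted p came from placing pregnant RNA in Cy3 on every array. The number of probes called was 0 in the main setting, 1 with offset 0, 2 without a dye effect and 1021 in the separate-channel fit. Leaving out 1 array gave from 0 to 3391 called probes, 4 without array 3. The median of the cell cycle list ran from -0.27 to -0.01 and moved by less than the spread between arrays under every alternative. The correlation of CDK1 with CCNB1 no longer passed without the 2 farthest gilts (0.43) or without the cyclic gilt of array 3 (0.72), a setting chosen after seeing the data, and ran from 0.66 to 0.98 on leaving out 1 array, failing without array 2 (0.93, exact permutation p = 0.0611) and array 3 (0.66, exact permutation p = 0.146). Without the 2 farthest gilts that of CDK1 with TOP2A was 0.79 and that of CCNB1 with TOP2A 0.78, and leaving out 1 array gave 0.84 to 1.00 and 0.84 to 0.99, the latter pair failing without array 3 (exact permutation p = 0.0667). Fewer gilts enter these settings. The comparison is itself paired by array. No paired analysis was possible beyond it because every ratio already holds both gilts of its array, which leaves no further block to fit. Signals were 1.44 to 6.68 times background in all but 4 of the 32 readings. How far such dim spots limit the size of the ratios was not tested apart from the changes of offset and signal.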

Other observations

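A log2 ratio below -0.8 on both arrays 2 and 3 was found for 9 named genes besides CDK1, CCNB1 and TOP2A, of which AMY2 and FSHB were singled out after their values were seen. FSHB, a gonadotropin subunit gene of the pituitary, had -3.36, -1.99 and -0.32 on arrays 2 to 4, with its spot on array 1 left out as an outlier, and did not pass (limma adjusted p = 0.279). AMY2, which encodes an amylase, a starch-digesting enzyme, had 19 tested probes. Their median log2 ratio of pregnant over cyclic was 0.10, -1.72, -4.51 and -0.04 on arrays 1 to 4. On array 3 the 16 probes with an unflagged spot ran from -5.17 to -4.06, and on array 2 the 19 probes ran from -1.92 to -1.41. As for CDK1, CCNB1 and TOP2A, the cyclic gilt was thus the higher one on arrays 2 and 3, and arrays 1 and 4 were near 0. In the 8 AMY2 probes measured in all 8 gilts, the cyclic gilt of array 3 exceeded the next by 2.83 to 4.35 log2 units. The fitted AMY2 ratios ran from -2.83 to -0.34 and none passed (limma adjusted p from 0.235 to 0.708). The r of these 8 probes with the mean of the 3 genes ran from 0.59 to 0.94 over 8 gilts, and from -0.13 to 0.72 without the cyclic gilt of array 3. The part of AMY2 or of its source in the levels of the 3 genes was not tested.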
